A study of Mus musculus with 34 samples.

Results

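The uroplakins and the basal urothelial genes were described across all groups of a bulk RNA-seq series on mouse kidneys, kidney explants and kidney progenitor assembloids. The set holds 8 of the 23331 genes in the deposited table, picked by gene name. They are the uroplakins Upk1a, Upk1b, Upk2, Upk3a and Upk3b, and the basal genes Krt5, Krt15 and Trp63. All 8 were found in the table, and all 8 passed the filter on low values.

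The 34 samples form 17 groups of 2. Wild-type kidneys came from embryos (E12.5, E15.5) and from mice of postnatal days P0, P9 and P45. Explants are E12.5 kidneys of the genotype Hoxb7-venus kept in culture: 7 days (D7) with 10% fetal bovine serum (FBS), D17 in the stage-based medium v0, D3, D7, D13 and D19 in v1, and D19 in v2. Mouse kidney progenitor assembloids (mKPA) were made from expandable progenitors, also Hoxb7-venus, and were grown in v2 to D3, D7, D13 and D19, with a pair of D19 sets labelled r1 and r2. Hoxb7-venus is a transgene in which the Hoxb7 promoter drives a fluorescent protein in the ureteric bud lineage. The kidneys carried no reporter, so genotype and culture cannot be told apart where cultures are set against kidneys. The sources used here do not give sex, strain, pooling of animals or the contents of the media. No label states that both samples of a group are separate animals or cultures, so the p-values measure only the spread between these samples, which may be technical.

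Urothelium lines the renal pelvis, the ureter and the bladder. Its superficial cells carry plaques of uroplakins on their apical membrane, which make the surface tight to urine. Upk1a and Upk1b encode tetraspanins. Upk1a pairs with Upk2, and Upk1b pairs with Upk3a or Upk3b, before the proteins leave the endoplasmic reticulum. Basal cells lie on the basement membrane and express the transcription factor p63, encoded by Trp63, and the keratins Krt5 and Krt15. Upk3b is also made by mesothelium, the cell layer on the surface of abdominal organs.

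The positions are those of the deposited table, on mm39. Upk1a (ENSMUSG00000006313.6) lies on chromosome 7 from 30302517 to 30312273, and Upk1b (ENSMUSG00000049436.6) on chromosome 16 from 38593546 to 38620691, both on the minus strand. Upk2 (ENSMUSG00000041523.4) lies on chromosome 9 from 44364012 to 44366274 on the minus strand. Upk3a (ENSMUSG00000022435.7) lies on chromosome 15 from 84901342 to 84906749, and Upk3b (ENSMUSG00000042985.8) on chromosome 5 from 136067350 to 136075342, both on the plus strand. Krt5 (ENSMUSG00000061527.8) lies on chromosome 15 from 101615505 to 101621334, and Krt15 (ENSMUSG00000054146.9) on chromosome 11 from 100022584 to 100026755, both on the minus strand. Trp63 (ENSMUSG00000022510.15) lies on chromosome 16 from 25502513 to 25710853 on the plus strand. The 5 uroplakins thus lie on 5 chromosomes, and none of the 8 spans overlapped another gene of the table.

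Promoter sequences from RefSeq on GRCm38.p6 matched 4 of the 8 genes. The 250 bases upstream of the start of 3 uroplakins are shown because Upk1a and Upk3a were both low at E12.5 and high at P0, while Upk3b was high at both. They are chr7:30612735-30612984 on the minus strand for Upk1a, chr15:85016891-85017140 on the plus strand for Upk3a and chr5:136038246-136038495 on the plus strand for Upk3b. Each is written 5′ to 3′ along its gene, with the letters of any motif found in capitals.
Upk1a: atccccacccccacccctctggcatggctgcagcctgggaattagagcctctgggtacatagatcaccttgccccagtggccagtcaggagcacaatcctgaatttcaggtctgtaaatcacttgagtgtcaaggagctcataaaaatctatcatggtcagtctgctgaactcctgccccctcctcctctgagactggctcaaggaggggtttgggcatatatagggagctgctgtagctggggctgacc
Upk3a: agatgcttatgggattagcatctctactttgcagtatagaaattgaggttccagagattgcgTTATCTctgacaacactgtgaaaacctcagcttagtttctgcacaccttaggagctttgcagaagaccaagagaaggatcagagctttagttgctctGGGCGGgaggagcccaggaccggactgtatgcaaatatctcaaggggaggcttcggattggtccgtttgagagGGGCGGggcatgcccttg
Upk3b: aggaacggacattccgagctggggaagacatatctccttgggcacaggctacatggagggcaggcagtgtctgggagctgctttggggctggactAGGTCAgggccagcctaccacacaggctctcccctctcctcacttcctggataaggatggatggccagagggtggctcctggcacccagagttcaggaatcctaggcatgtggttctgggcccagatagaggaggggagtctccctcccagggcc
The motifs searched on both strands were TGTTTNC, read by forkhead (FOX) factors, AGATAA, read by GATA factors, AGGTCA, a nuclear receptor motif, the GC box GGGCGG and the TATA box TATAAA. Upk3a held the GATA letters once, on the opposite strand, starting 188 bases before the gene's start (position −188), and the GC box at −91 and −18. Upk3b held AGGTCA at −155. Upk1a held none of the 5 in this window, and neither did Krt5, whose promoter is not shown. No match overlapped another. Among 32851 mouse promoter windows of this length, 17.8% held the FOX letters, 10.0% the GATA letters, 14% AGGTCA, 32.7% the GC box and 12.4% the TATA box, so each match is common and describes letters only.

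The values are the authors' TMM-normalized expression signal. They are not divided by gene length, so a gene is compared with itself across samples and never with another gene. No value in the table is 0. The lowest value of a library is called 1 step here, and all 272 values of the 8 genes were whole multiples of it within 0.1 step. The sources used here do not state whether 1 step stands for no read or for 1 read. Each library held 2001 to 4074 genes at 1 step and 153 to 990 at 2 steps. Counting intervals below take each step as 1 read, and would not hold if 1 step stood for no read. Libraries held 15243962 to 28459391 steps, apart from replicate 2 of the D19 v2 explants with 7772347. Changes called in comparisons with that library are also given without it. Samples of a group correlated at 0.9832 to 0.9962 over all genes on the log2 scale. In the kidneys as in the cultures, summed values of 10 ureteric bud and collecting duct genes, Krt8 and Krt18 among them, lay between 338 and 1849. Such a sum does not show which of these genes a library held.

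Changes are differences of log2(value + 0.962), given ± the standard error (SE) of the fit. A gene was called when the Benjamini-Hochberg adjusted p of limma over 19264 genes was under 0.05 and the change was at least 1 in size. Such changes understate those of low genes. Beside each first count of called members stands the percentage of all tested genes called in that comparison. In bulk samples, fewer cells of a type and less RNA per cell cannot be told apart.

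**Figure D1:**
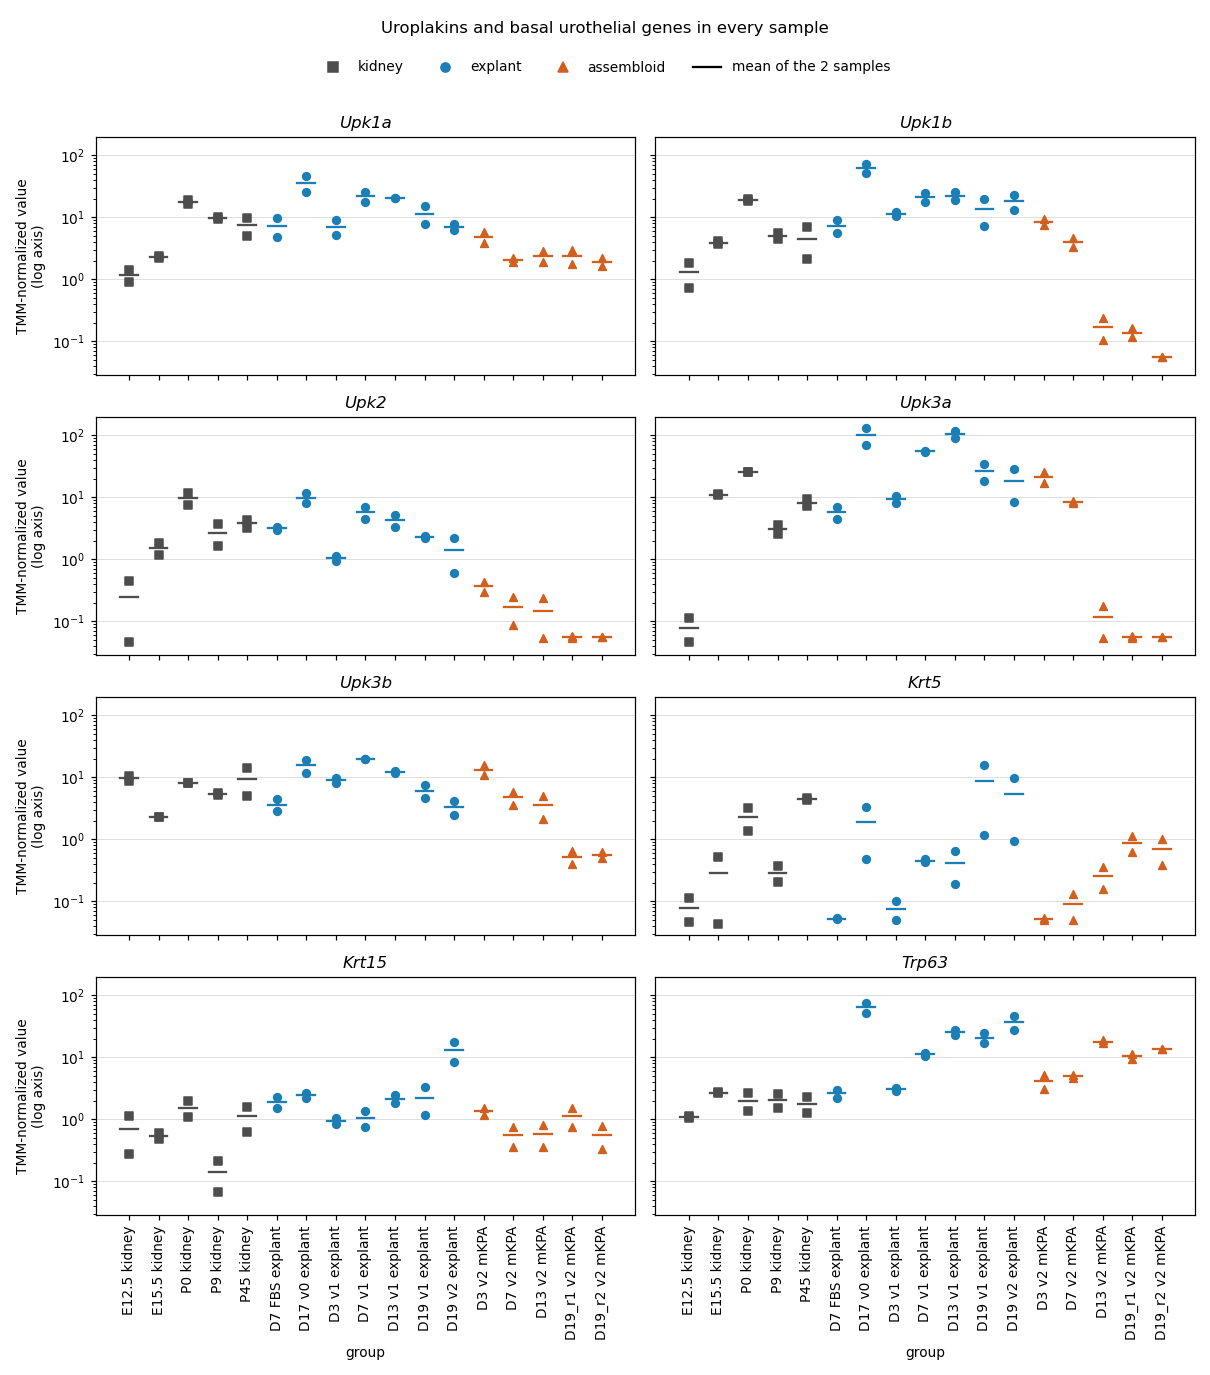
TMM-normalized value of each of the 8 genes (log axis) in the 34 samples, by group. Each symbol is a sample and each line the mean of the 2 samples of a group; Upk3a, for example, stood at 25.1 and 25.6 in the P0 kidneys and at 0.0459 and 0.111 in the E12.5 kidneys. Values are not per length, so panels are not to be compared with each other.

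The kidney stages show when these genes are expressed in the intact organ. Upk1a, Upk1b, Upk2 and Upk3a had their highest kidney values at P0, with no overlap with any other kidney stage. Of all tested genes, 60.6% did not overlap between P0 and E15.5 and 61.6% between P9 and P0. Upk3b did not follow the other uroplakins, and Trp63 stayed low in every kidney.

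From E12.5 to E15.5, 3 members rose and 1 fell, beside 9.62% of all tested genes called, with 6.45% higher and 3.17% lower. Upk3a, a partner of Upk1b in the plaque, stood at 1 and 2 steps at E12.5 (0.0459 and 0.111) and at 11.3 and 10.7 at E15.5. Its change was 3.52 ± 0.36 (adjusted p = 2.24e-08), and the ratio of the means was 140 with a 95% counting interval of 47.9 to 679. This was the largest change of the 8 genes between these stages. Upk1b rose from 0.735 and 1.84 to 3.65 and 4.10 (1.15 ± 0.38, adjusted p = 0.0267), and Upk2 from 0.0459 and 0.445 to 1.19 and 1.85 (1.05 ± 0.31, adjusted p = 0.0107). Both of these calls were lost when certain single libraries were left out. Without E12.5 replicate 1 the changes were 0.79 (adjusted p = 0.282) and 0.81 (adjusted p = 0.154), without E15.5 replicate 2 they were 1.08 (adjusted p = 0.129) and 0.85 (adjusted p = 0.126), and without E15.5 replicate 1 that of Upk1b was 1.21 (adjusted p = 0.0832). Upk1a, at 0.919 and 1.39 against 2.23 and 2.42, was not called (adjusted p = 0.167).

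Upk3b went the other way. It stood at 8.77 and 10.6 at E12.5 and at 2.28 and 2.29 at E15.5, a fall of 1.71 ± 0.34 (adjusted p = 0.00028). Other mesothelial markers did not move as a group. Lrrn4, which marks mesothelial cells, fell with Upk3b, from 7.21 and 5.79 to 1.38 and 1.08 (−1.77, adjusted p = 2.99e-06). Msln, the mesothelial surface protein mesothelin, rose (1.52) from 0.184 and 0.390, and Gpm6a, a membrane glycoprotein, rose (1.86). Of 5 tested markers in the list 2 rose and 1 fell, with a median of 0.09 beside 0 over all genes. The list summed to 49.6 and 46.8 at E12.5 and to 59.2 and 61.8 at E15.5, and its sixth gene, Muc16, did not pass the filter. Most of the sum was Rspo1, at 23.8 to 26.4 in these 4 samples, and Gpm6a, which went from 5.83 and 4.57 to 19.3 and 23.5. Gpm6a had its highest group mean in P45 kidneys (101), where the means of Msln and Lrrn4 were 0.839 and 0.349. The sum is therefore no measure of mesothelium. The part of mesothelium in the Upk3b values was not tested.

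All 5 uroplakins rose from E15.5 to P0, where 5.06% of tested genes were called, with 4.31% higher and 0.748% lower. Upk1a rose from 2.23 and 2.42 to 16.6 and 18.8 (2.51 ± 0.33, adjusted p = 2.63e-06). Its partner Upk2 rose from 1.19 and 1.85 to 7.38 and 11.9 (2.08 ± 0.31, adjusted p = 9.76e-06). Upk1b rose from 3.65 and 4.10 to 20.03 and 18.5 (2.06 ± 0.38, adjusted p = 0.00024). These genes gained most of their P0 level after E15.5. So did Upk3a, by a smaller change of 1.13 ± 0.36, from 11.3 and 10.7 to 25.1 and 25.6 (adjusted p = 0.019). Without any 1 of the 4 libraries the Upk3a call was lost, with adjusted p from 0.0626 to 0.0932. Upk3b rose from 2.28 and 2.29 to 7.94 and 8.20 (1.48 ± 0.34, adjusted p = 0.00164). No basal member was called. Krt5 stood at 0.522 and 0.0431 at E15.5 and at 1.37 and 3.17 at P0 (1.35 ± 0.73, adjusted p = 0.192). In the list of 13 other superficial urothelial genes 5 rose, with a median of 0.84 beside 0 over all genes. They included Psca (3.48), a surface antigen of superficial cells, at 10.3 and 11.9 at P0, and Snx31 (1.25), a sorting nexin of superficial cells, at 7.68 and 7.27.

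From P0 to P9, 4 members fell and none rose, beside 11.7% of tested genes called, with 5.79% higher and 5.94% lower. Upk3a fell by 2.71 ± 0.36 to 3.60 and 2.58 (adjusted p = 1.4e-06), Upk1b by 1.76 ± 0.38 to 5.57 and 4.46 (adjusted p = 0.000621) and Upk2 by 1.57 ± 0.31 to 3.67 and 1.66 (adjusted p = 0.00015). Krt15, a keratin of basal cells, fell by 1.15 ± 0.33 from 1.07 and 1.97 to 0.0680 and 0.215 (adjusted p = 0.00652). Upk1a stood at 9.31 and 10.0 and missed the threshold (−0.81, adjusted p = 0.0512). The Krt15 call was lost without P0 replicate 2 (−0.89, adjusted p = 0.0925).

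Between P9 and P45, Upk3a and Krt5 rose, beside 14.6% of tested genes called, with 7.77% higher and 6.84% lower. Upk3a stood at 9.31 and 7.12 at P45 (1.18 ± 0.36, adjusted p = 0.00868), and Krt5 at 4.27 and 4.61 against 0.204 and 0.376 at P9 (2.11 ± 0.73, adjusted p = 0.0247). Mitochondrial transcripts made up 14.7 to 21.8% of the P9 and P45 columns and 1.96 to 6.07% of all others. With columns rescaled to equal totals the median of all genes moved to −0.33, and neither call remained, at 0.78 for Upk3a (adjusted p = 0.0596) and 1.67 for Krt5 (adjusted p = 0.0575). The Krt5 call was also lost without any 1 of the 4 libraries (adjusted p from 0.0668 to 0.0968), and that of Upk3a without P9 replicate 2 (adjusted p = 0.0785) or P45 replicate 1 (adjusted p = 0.0757). Upk3b differed between the P45 samples, at 4.90 and 13.96. Trp63 was not called in any step between kidney stages, with values of 1.06 to 2.71 in the 10 kidneys. Between E12.5 and E15.5 it went from 1.06 and 1.11 to 2.71 and 2.67, a change of 0.84 that lay under the fold threshold.

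Explants at D3 in v1 were set against E12.5 kidneys, the stage at which culture began. Upk1a, Upk1b and Upk3a were higher and none was lower, beside 8.48% of tested genes called, with 5.27% higher and 3.21% lower. Upk3a stood at 8.13 and 10.6 in the explants against 1 and 2 steps in the kidneys (3.30 ± 0.36, adjusted p = 9.64e-08), a ratio of 119 with a counting interval of 40.8 to 578. Upk1b stood at 10.4 and 12.3 (2.49 ± 0.38, adjusted p = 1.72e-05) and Upk1a at 5.14 and 8.95 (1.89 ± 0.33, adjusted p = 7.87e-05). Upk3b, at 8.13 and 9.78, was not called (−0.10 ± 0.34, adjusted p = 0.88). Trp63 was at 2.89 and 3.24, above both E12.5 samples, but its change of 0.98 lay under the fold threshold (adjusted p = 0.0057). Of the 13 other superficial genes 9 were higher, with a median of 1.71 beside 0.01 over all genes. Foxa1, a forkhead factor of urothelium, rose to 23.1 and 23.5 (3.08, adjusted p = 1.44e-07).

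In v1, 4 uroplakins rose from D3 to D7, and Upk3a had its highest v1 values at D13 and was lower at D19. Upk3a had 54.0 and 56.0 at D7, 116 and 89.4 at D13 and 18.6 and 33.9 at D19. The D13 values exceeded those of every kidney, and the D19 values spanned those of P0. Trp63 stood at 11.8 and 10.5 at D7, 22.9 and 27.7 at D13 and 17.1 and 24.3 at D19, and was not called between D13 and D19 (−0.29, adjusted p = 0.509).

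From D3 to D7 in v1, 5 members rose, beside 4.7% of tested genes called, with 3.15% higher and 1.55% lower. These were Upk3a (2.45 ± 0.36, adjusted p = 1.87e-05), Upk2 (1.71, adjusted p = 0.000149), Trp63 (1.58 ± 0.26, adjusted p = 6.14e-05), Upk1a (1.52, adjusted p = 0.00134) and Upk3b (1.07, adjusted p = 0.0228). The Upk3b call was lost without any 1 of the 4 libraries. From D13 to D19, beside 5.3% of tested genes called (2.7% higher and 2.6% lower), Upk3a fell by 1.98 ± 0.36 (adjusted p = 0.000267) and Krt5 rose from 0.191 and 0.636 (2.14 ± 0.73, adjusted p = 0.0443). The Krt5 call was lost without D19 replicate 2 (0.64, adjusted p = 0.625), without D13 replicate 1 (1.9, adjusted p = 0.198) or without D13 replicate 2 (2.38, adjusted p = 0.116). Both comparisons were chosen after the values had been seen. Foxa1 and Gata3, 2 factors of urothelium, fell in that last interval as well, Foxa1 from 59.6 and 57.5 to 23.5 and 33.5 (−1.04, adjusted p = 0.0303).

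Over the whole interval from D3 to D19 in v1, Upk3a, Krt5 and Trp63 rose, beside 16.4% of tested genes called, with 10.5% higher and 5.96% lower. Trp63 rose by 2.41 ± 0.26 (adjusted p = 1.56e-08) and Upk3a by 1.35 ± 0.36 (adjusted p = 0.00314). Krt5, a keratin of basal cells, had 0.0997 and 0.0492 at D3 and 1.16 and 15.9 at D19, so its D19 samples lay far apart (2.53 ± 0.73, adjusted p = 0.00834). Without D19 replicate 2 its change was 1.03 (adjusted p = 0.241) and that of Upk3a 0.93 (adjusted p = 0.0845), and Trp63 was the 1 member still called (2.17). With the 2 groups fitted alone Krt5 had an adjusted p of 0.193. Of 8 other basal layer genes 5 rose, with a median of 1.34 beside −0.01 over all genes. Cd44 (1.65) rose, as did Itga6 and Itgb4, the integrin pair of hemidesmosomes, by 1.55 and 1.47. Col17a1, a hemidesmosome collagen, rose by 1.51. Not all of these followed Trp63 across the series. Itga6 had its highest group mean in P45 kidneys (427), where that of Trp63 was 1.78. Col17a1, like Trp63, had its highest in D17 v0 explants (8.55). Cd44 had its highest there too (68.5), but its mean was nearly the same in serum explants (67.6), where that of Trp63 was 2.61. In the other superficial list 9 of 13 rose, with a median of 1.49. Krt20, a keratin of mature superficial cells, went from 4.14 and 3.10 to 54.8 and 51.0, while Upk1b, at 7.12 and 19.8, was not called.

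**Figure D2:**
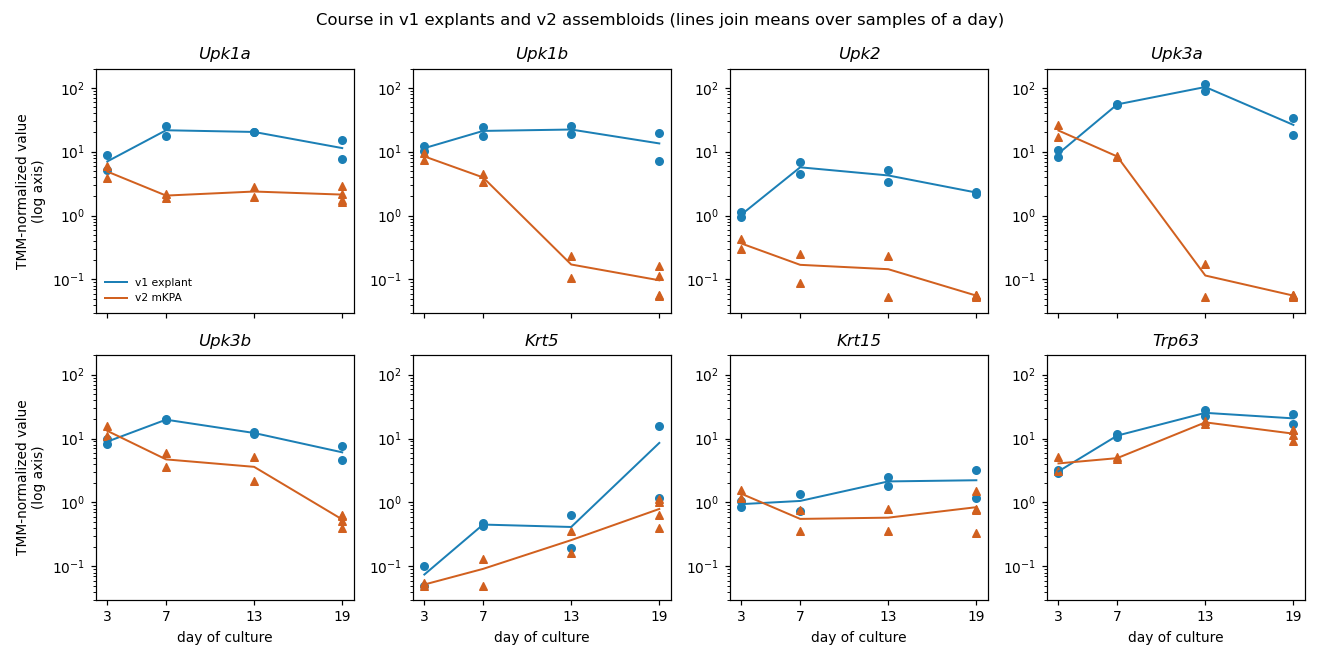
TMM-normalized value of each gene (log axis) by day of culture in v1 explants and v2 assembloids. Symbols are samples and lines join the means of all samples of a day; Upk3a had 116 and 89.4 in explants at D13 and 0.0535 and 0.177 in assembloids of that day, while the Trp63 values of that day were 22.9 and 27.7 in explants and 19.03 and 16.8 in assembloids.

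Medium v1 was compared with serum at D7. Upk1a, Upk1b, Upk3a, Upk3b and Trp63 were higher in v1 and none was lower, beside 11.3% of tested genes called, with 5.72% higher and 5.62% lower. Upk3a stood at 54.0 and 56.0 in v1 and at 6.96 and 4.46 in serum (3.09 ± 0.36, adjusted p = 2.18e-07). Upk3b stood at 19.96 and 19.6 against 2.84 and 4.41 (2.20 ± 0.34, adjusted p = 9.1e-06). Trp63 stood at 11.8 and 10.5 against 2.99 and 2.23 (1.76 ± 0.26, adjusted p = 4.95e-06), with no overlap between the media. The media did not overlap for 72% of all tested genes. Upk1a (1.497, adjusted p = 0.000742) and Upk1b (1.43, adjusted p = 0.00438) differed less. The Upk1b call was lost without serum replicate 2 (1.12, adjusted p = 0.0753) or v1 replicate 1 (1.20, adjusted p = 0.0575). Upk2 was not called (0.67, adjusted p = 0.0835), at 6.95 and 4.44 against 2.94 and 3.34. Krt5 was at 1 step in both serum explants and at 0.426 and 0.476 in v1, a change that was not called (adjusted p = 0.662).

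Krt20, Vsig2 and Snx31 were higher in v1 among 13 other superficial genes, and none was lower (median 0.50 beside −0.04 over all genes). In the other basal list Dsc3, a desmosomal cadherin, was higher (1.31), while Cd44, a hyaluronan receptor, stood at 16.3 and 16.0 against 67.6 in both serum explants, and Itga6, an integrin of hemidesmosomes, was lower too (−1.11). Vsig2, an immunoglobulin-domain surface protein, was at 1 step in both serum explants and at 5.39 and 6.02 in v1. Among urothelial factors the retinoic acid receptors Rarb (1.77) and Rarg (1.25) and Foxa1 (1.07) were higher. The squamous marker Sprr1a, a cornified envelope precursor, stood at 208 and 174 in v1 and at 31.4 and 33.0 in serum (2.53, adjusted p = 1.76e-05). In that list 3 of 8 genes were higher and 1 lower, and its summed values were 231 and 192 against 47.0 and 49.2, most of them Sprr1a. Krt13 was at 1 step in both v1 samples. The part of squamous change in the member values was not tested.

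The D17 v0 explants had the highest group means of Upk1a, Upk1b, Upk2 and Trp63 in the series. For Upk2 this mean (9.76) was close to that of P0 kidneys (9.65), and these groups overlapped. Set against D19 v1 explants, of which day and medium both differ, all 5 uroplakins and Trp63 were lower in v1 and none was higher, beside 5.45% of tested genes called, with 2.63% higher and 2.82% lower. Upk1b stood at 52.5 and 72.9 in v0 and at 7.12 and 19.8 in v1 (−2.28 ± 0.38, adjusted p = 0.000103). Upk3a stood at 69.2 and 130.0 in v0 (−1.88 ± 0.36, adjusted p = 0.000383), and Upk2 at 8.001 and 11.5 (−1.70, adjusted p = 0.000157). Upk1a stood at 25.9 and 46.4 (−1.60 ± 0.33, adjusted p = 0.000817). Trp63 stood at 51.0 and 75.8 in v0 and at 17.1 and 24.3 in v1 (−1.56 ± 0.26, adjusted p = 6.97e-05). Upk3b had the smallest called difference (−1.22, adjusted p = 0.00899), and this call was lost without v0 replicate 2 (−0.90) or v1 replicate 1 (−0.91). Every member was higher in v0 replicate 2 than in replicate 1 except Krt15. Of 13 other superficial genes 3 were higher and 3 lower in v1 (median −0.19 beside 0.03 over all genes), none of 8 other basal genes was called (median −0.06), and 3 of 11 urothelial factors were lower and none higher.

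Ureter mesenchyme and smooth muscle genes moved with this difference. Of 12 genes 8 were lower in v1 and none was higher, with a median of −1.26. In this and the later comparisons the list also holds Shh, a ligand made by ureteric epithelium, so it is not purely mesenchymal. The list summed to 1385 and 2129 in v0 and to 580 and 826 in v1. Myh11, the smooth muscle myosin, stood at 493 and 811 in v0 and at 113 and 180 in v1. Sprr1a stood at 382 and 531 in v0 and at 58.6 and 101 in v1 (−2.54, adjusted p = 4.78e-05). The part of these cells in the uroplakin and Trp63 values was not tested.

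At D19, v2 explants were compared with v1 explants, beside 2.84% of tested genes called, with 1.13% higher and 1.71% lower. Krt15 was the 1 member called. It stood at 17.3 and 8.44 in v2 and at 1.19 and 3.26 in v1, a change of 2.12 ± 0.33 (adjusted p = 7.12e-05). The v2 samples were the highest of the series for Krt15 and did not overlap any other group. Between v2 and v1, 47% of all tested genes did not overlap. Trp63, at 45.6 and 27.1 in v2, lay above both v1 samples but was not called (0.76 ± 0.26, adjusted p = 0.0694). Krt5 stood at 9.67 and 0.950 in v2 and at 1.16 and 15.9 in v1, so the groups overlapped. Without the shallow v2 replicate 2, Krt15 changed by 2.60 (adjusted p = 7.45e-05) and Trp63 was called as well (1.12, adjusted p = 0.0281). Without v2 replicate 1, Krt15 changed by 1.64 (adjusted p = 0.0048), while Upk3a (−1.47, adjusted p = 0.00304) and Upk2 (−1.06, adjusted p = 0.0385) were called lower. None of the 8 other basal layer genes, 13 other superficial genes and 11 urothelial factors was called. Of 10 ureteric bud and collecting duct genes 2 were higher and 1 lower in v2 (median 0.53 beside −0.07 over all genes), with sums of 1154 and 1083 against 665 and 670. Of 8 squamous genes Sprr1a was lower, at 21.6 and 26.02 against 58.6 and 101 (−1.66, adjusted p = 0.00581). The part of these genes in the Krt15 result was not tested.

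Against P0 kidneys, the D19 v2 explants had 2 basal members higher and 3 uroplakins lower, beside 16.2% of tested genes called, with 7.16% higher and 9.03% lower. Trp63 was higher by 3.64 ± 0.26 (adjusted p = 6.62e-12), at 45.6 and 27.1 against 1.37 and 2.62. Krt15 was higher by 2.43 ± 0.33 (adjusted p = 8.72e-07). Upk2 was lower, at 2.21 and 0.594 against 7.38 and 11.9 (−2.22 ± 0.31, adjusted p = 9.37e-07), as were Upk1a (−1.23, adjusted p = 0.00364) and Upk3b (−1.10, adjusted p = 0.00922). Upk1b, at 23.1 and 13.2 against 20.03 and 18.5, overlapped the kidneys, and so did Upk3a, at 28.1 and 8.44 against 25.1 and 25.6. Without v2 replicate 2 the Upk3b change was −0.81 (adjusted p = 0.123), and the calls of Trp63 (4.01), Krt15 (2.91), Upk2 (−1.71) and Upk1a (−1.09) held. Without v2 replicate 1 Upk3a was called lower (−1.48, adjusted p = 0.000616). Of 13 other superficial genes 5 were higher and 1 lower (median 0.53 beside −0.08 over all genes), and of 8 other basal genes 3 were higher and none lower (median 0.70). Of 11 urothelial factors 6 were higher and none lower (median 1.37), led by Foxa1 (3.01) and Klf5 (3.01), a zinc finger factor. Of 12 ureter mesenchyme genes 7 were higher (median 1.71), with summed values of 759 and 727 against 410 and 398. Of 10 ureteric bud and collecting duct genes 1 was higher and 3 were lower (median −0.23). Their part in the result was not tested.

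**Figure D3:**
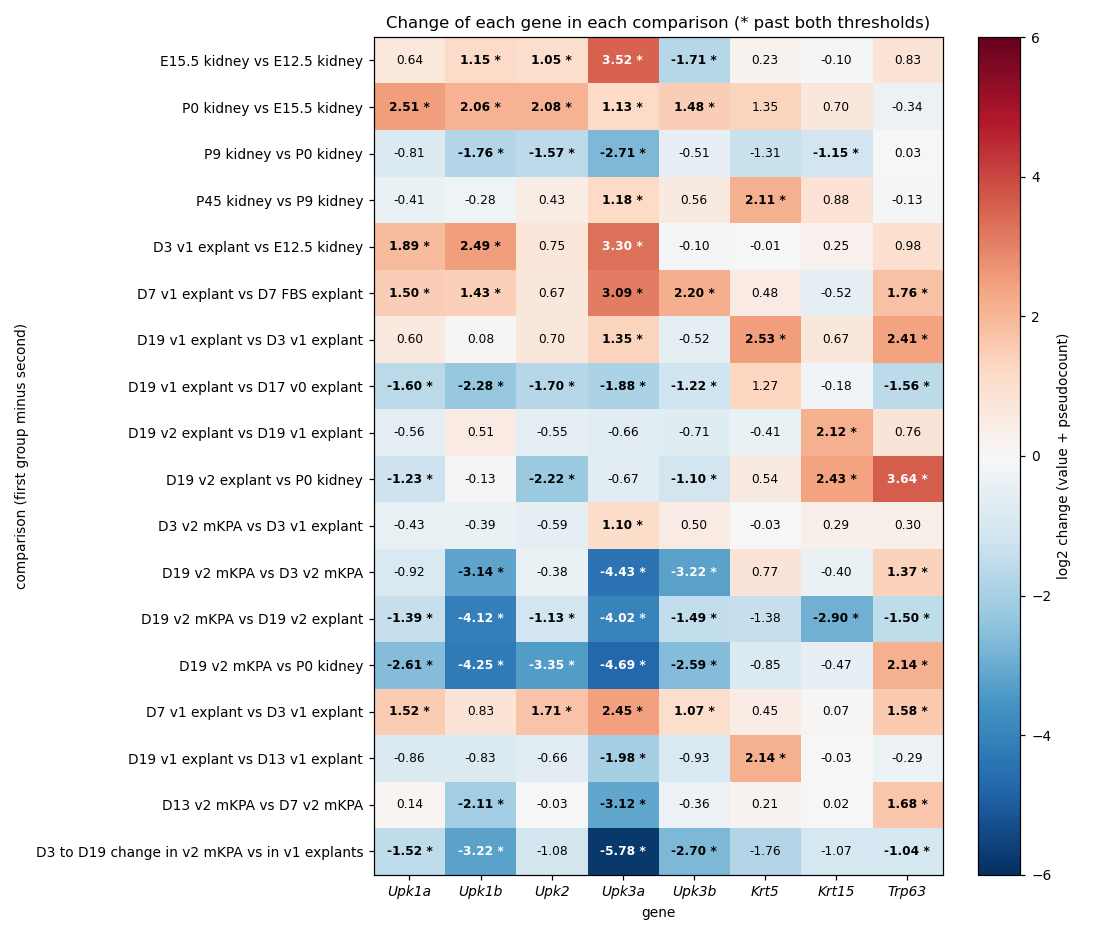
Log2 change of each gene (columns) in each comparison (rows), coloured from lower (blue) to higher (red), with the value printed and an asterisk where both thresholds were passed. The last row is the difference of changes, with Upk3a at −5.78.

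Assembloids at D3 already expressed Upk1a, Upk1b, Upk3a and Upk3b, while Upk2 was at only 6 and 8 steps. Compared with D3 v1 explants, of which origin and medium both differ, Upk3a was the 1 member called, beside 7.68% of tested genes, with 2.25% higher and 5.42% lower. It stood at 17.1 and 25.8 in the assembloids and at 8.13 and 10.6 in the explants (1.10 ± 0.36, adjusted p = 0.0282). The call was lost without explant replicate 1 (0.93, adjusted p = 0.203), explant replicate 2 (1.27, adjusted p = 0.0506) or assembloid replicate 2 (0.82, adjusted p = 0.242). Upk1b stood at 7.49 and 9.38, Upk1a at 3.90 and 5.87 and Upk3b at 10.9 and 15.52, none of them called. Upk2 was at 0.300 and 0.431 against 0.947 and 1.13 (−0.59 ± 0.31, adjusted p = 0.187). Foxa1 stood at 47.6 and 77.0 in the assembloids (1.34, adjusted p = 0.00491). Ureter mesenchyme genes lay far lower: 6 of 12 were lower and 1 higher, with a median of −1.49 beside 0 over all genes and sums of 311 and 393 against 462 and 531, and Myh11 was at 0.999 and 1.13 against 21.3 and 21.1. Squamous Sprr1a was higher, at 331 and 424 against 59.7 and 64.0, and Krt4, a keratin of stratified epithelia, was at 10.1 and 16.0 against 0.249 and 0.492. Of 10 ureteric bud and collecting duct genes 2 were higher and none lower (median 0.89), with sums of 1048 and 1197 against 530 and 557. The part of these genes in the Upk3a value was not tested.

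By D13, Upk3a and Upk1b were down to a few steps in the assembloids, while Trp63 was higher than at D7. Upk3a stood at 8.21 and 8.62 at D7 and at 1 and 3 steps at D13 (0.0535 and 0.177). All 4 D19 samples were at 1 step. Upk1b stood at 4.55 and 3.36 at D7 and at 0.107 and 0.236 at D13. Its D19 values were 0.115 and 0.161 in r1 and 1 step in both r2 samples. Trp63 stood at 5.16 and 4.71 at D7, at 19.03 and 16.8 at D13 and at 9.30 to 13.5 at D19. From D7 to D13, a comparison chosen after the values had been seen, Upk3a fell by 3.12 ± 0.36 (adjusted p = 2.35e-06), Upk1b fell by 2.11 ± 0.38 (adjusted p = 0.000579) and Trp63 rose by 1.68 ± 0.26 (adjusted p = 7.65e-05). In that interval 2.67% of tested genes were called, with 1.83% higher and 0.841% lower. The ratio of the Upk3a means was 73.0 with a counting interval of 28.5 to 268, and 47.5 without D13 replicate 1.

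From D3 to D19 in the assembloids, with r1 and r2 averaged, Upk3a, Upk1b and Upk3b fell and Trp63 rose, beside 17.4% of tested genes called, with 10.9% higher and 6.45% lower. Upk3a fell by 4.43 ± 0.31 on the fitted scale (adjusted p = 9.45e-12). With 3 steps per library as the floor, D19 was at least 128-fold lower. Upk3b fell by 3.22 ± 0.29 (adjusted p = 4.23e-10) to 0.403, 0.645, 0.615 and 0.505. Upk1b fell by 3.14 ± 0.33 (adjusted p = 1.38e-08). Upk1a changed least among the uroplakins that had been above 1 at D3: it stood at 2.94 and 1.77 in r1 and 1.62 and 2.19 in r2 (−0.92 ± 0.29, adjusted p = 0.00867), under the fold threshold. At D7 it had stood at 2.21 and 1.905. Trp63 rose by 1.37 ± 0.23 (adjusted p = 9.65e-06). Krt5 went from 1 step in both D3 samples to 0.392 to 1.13 and was not called (adjusted p = 0.339). Each D19 set alone kept these 4 calls, and with r2 alone Upk1a was called as well (−1.01, adjusted p = 0.0132).

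Other genes of the superficial layer did not all follow. Of 13 genes 4 fell and 1 rose, with a median of −0.36 beside 0.01 over all genes. Snx31 fell (−2.46) from 4.70 and 11.05 to 0.288 to 0.699, and the keratins Krt7 (−1.58) and Krt19 (−1.25) fell. Krt20 rose (3.23), from 0.500 and 0.593 to 9.16 to 25.8. Among urothelial factors 4 of 11 fell and none rose. Foxa1 fell by 3.78 ± 0.29 (adjusted p = 8.18e-11), from 47.6 and 77.0 to 3.17 to 4.09, and Pparg, a nuclear receptor of urothelial differentiation, fell by 1.08. Shh, the hedgehog ligand made by ureteric epithelium, fell by 3.78 (adjusted p = 4.99e-10), from 15.4 and 25.01 to 0.403 to 0.786. Of 8 other basal layer genes 4 rose and none fell, with a median of 0.89. Itga6 rose by 1.85, the desmosomal Dsc3 by 1.19, Cd44 by 1.06 and the keratin Krt17 by 1.03. Krt14, a basal keratin, stood at 0.112 to 0.645 at D19.

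Markers of other epithelia moved over the same days. Sprr1a fell from 331 and 424 to between 0.447 and 3.60 (−7.20, adjusted p = 2.07e-13). The squamous list summed to 350 and 448 at D3, most of it Sprr1a, and to 17.4 to 30.8 at D19. In that list Krt4 and Sprr1a fell and Sbsn rose (1.57). Msln fell from 33.8 and 49.0 to 0.615 to 5.64 (−3.85, adjusted p = 7.54e-12), while the mesothelial list as a whole summed to 96.5 and 92.4 at D3 and to 54.2 to 65.3 at D19. Most of the D19 sum was Rspo1 alone, at 40.9 to 50.3 against 57.3 and 38.5 at D3. Smooth muscle Myh11 rose from 0.999 and 1.13 to 88.2 to 155 (5.78, adjusted p = 2.04e-13). Ureteric bud and collecting duct genes summed to 1048 and 1197 at D3 and to 726 to 810 at D19, with 5 of 10 lower and 2 higher. The part of these cells in the member values was not tested.

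**Figure D4:**
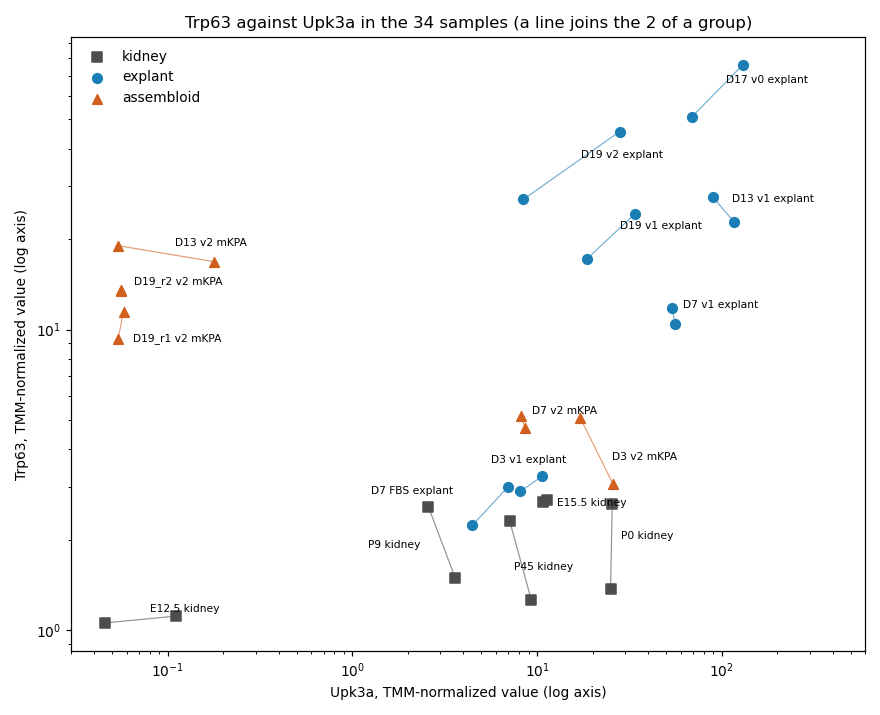
Trp63 against Upk3a, both as TMM-normalized values on log axes, in the 34 samples. The 6 assembloid samples of D13 and D19 have Upk3a at 0.0535 to 0.177 and Trp63 at 9.30 to 19.03, whereas the E12.5 kidneys have both low, with Trp63 at 1.06 and 1.11.

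The course in assembloids differed from that in v1 explants. Tested directly, the change from D3 to D19 was called lower in assembloids for 5 members and higher for none, beside 9.5% of tested genes, with 4.03% lower and 5.48% higher. It was −5.78 ± 0.47 for Upk3a (adjusted p = 4.01e-09), −3.22 ± 0.51 for Upk1b (adjusted p = 4.3e-05) and −2.70 ± 0.45 for Upk3b (adjusted p = 6.08e-05). For Upk1a it was −1.52 ± 0.44 (adjusted p = 0.0135) and for Trp63 −1.04 ± 0.35 (adjusted p = 0.032). The Upk1a call was lost without explant D3 replicate 1 (−1.17), explant D19 replicate 2 (−1.07) or assembloid D3 replicate 2 (−1.27). The Trp63 call was lost without explant D3 replicate 1 (−0.98) or 2 (−1.10), explant D19 replicate 2 (−0.80), assembloid D3 replicate 1 (−0.75) or D19 r1 replicate 2 (−0.97), with r2 alone (−0.86), and with columns rescaled to equal totals (−0.94). With 5 times the pseudocount both calls were lost (−0.91 and −0.77), and with 0.1 times it that of Trp63 (−1.15, adjusted p = 0.0591). Upk2 was not called (−1.08, adjusted p = 0.0566). Of 13 other superficial genes 9 were called lower and none higher (median −1.72 beside 0 over all genes). Foxa1 differed by −4.04 and Elf3, an epithelial ETS factor, by −2.79, and 6 of 11 urothelial factors were called lower and none higher. Explants were in v1 and assembloids in v2, so medium and origin cannot be told apart here, and the samples are those of the comparisons within each culture.

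At D19 both cultures were available in v2. All 5 uroplakins, Krt15 and Trp63 were lower in assembloids than in explants and none was higher, beside 5.44% of tested genes called, with 2.15% higher and 3.29% lower. Upk1b stood at 23.1 and 13.2 in explants and at 0.115, 0.161, 0.0559 and 0.0561 in assembloids (−4.12 ± 0.33, adjusted p = 1.4e-09), a ratio of 187 with a counting interval of 90.6 to 464. Upk3a stood at 28.1 and 8.44 in explants and was at least 109-fold lower in assembloids (−4.02 ± 0.31, adjusted p = 7.38e-10). Upk2 was at least 8.36-fold lower (−1.13, adjusted p = 0.00226). The Upk2 bound was 3.55 without explant replicate 1 and 13.2 without explant replicate 2, and that of Upk3a was 50.4 and 168. The Upk1b ratio ran from 136 to 239 when samples were left out one at a time, and these repeats of bounds and ratios were chosen after the values had been seen. The groups did not overlap for any of these 3 genes, nor for 44% of all tested genes.

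Krt15 stood at 17.3 and 8.44 in explants and at 0.749, 1.504, 0.783 and 0.337 in assembloids (−2.90 ± 0.29, adjusted p = 1.73e-08). Trp63 was lower by less (−1.50 ± 0.23, adjusted p = 1.48e-05), as were Upk3b (−1.49, adjusted p = 0.000413) and Upk1a (−1.39, adjusted p = 0.00073). Without the shallow explant replicate 2 all 8 members were called lower, with Upk3a at −4.83, Upk1b at −4.50, Krt15 at −3.38, Krt5 at −2.62 (adjusted p = 0.0112), Trp63 at −1.87, Upk3b at −1.77, Upk2 at −1.64 and Upk1a at −1.52. Without explant replicate 1 the Upk2 call was lost (−0.61, adjusted p = 0.159) and that of Upk3a held at −3.21. Of 13 other superficial genes 6 were lower and none higher (median −0.97 beside 0.05), among them Vsig2 (−3.49), Psca (−2.38) and Krt7 (−1.94). None of the 8 other basal layer genes was called, with a median of −0.05. Foxa1 (−3.14), Pparg (−1.95), Hoxa13 (−1.49), a posterior homeobox factor, and Grhl3 (−1.48), a grainyhead factor, were lower. Of 12 ureter mesenchyme genes 5 were lower (median −0.84), with sums of 515 to 707 against 759 and 727, and Sprr1a was lower (−3.27). The part of these genes in the result was not tested.

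Against P0 kidneys, the D19 assembloids had all 5 uroplakins lower and Trp63 higher, beside 12.4% of tested genes called, with 5.68% higher and 6.76% lower. This comparison and the ones above share the same 4 assembloid samples. Upk3a was at least 151-fold lower (−4.69 ± 0.31, adjusted p = 7.15e-12) and Upk2 at least 57.6-fold lower (−3.35 ± 0.27, adjusted p = 3.72e-11). Upk1b was lower by 198-fold with a counting interval of 96.2 to 493. Upk1a (−2.61, adjusted p = 3.07e-08) and Upk3b (−2.59, adjusted p = 4.59e-08) differed by less on this scale. Trp63 was higher by 2.14 ± 0.23 (adjusted p = 1.11e-08). Each of the 6 calls remained when any 1 sample was left out. Krt5 and Krt15 were not called. Of 13 other superficial genes 3 were higher and 4 lower (median −0.35 beside −0.04 over all genes), and of 8 other basal genes 4 were higher and none lower (median 0.80). Of 10 ureteric bud and collecting duct genes 4 were lower and none higher (median −0.93), with sums of 726 to 810 against 1009 and 1226. Of 12 ureter mesenchyme genes 4 were higher and 1 lower (median 0.82), with sums of 515 to 707 against 410 and 398. The part of these cells in the member values was not tested.

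Ranked over the 17 groups, each uroplakin had its lowest mean in an assembloid group or at E12.5. Upk3a was led by D13 v1 and D17 v0 explants (means 103 and 99.6), which overlapped, followed by D7 v1 explants (55.0), apart from both neighbours. Below P9 kidneys (3.09) came a wide gap to 4 groups that overlapped each other in turn, the D13 and D19 assembloids and the E12.5 kidneys, at 0.0557 to 0.115. Upk3b was led by D7 v1 explants (19.8), with E12.5 kidneys at 9.70 in rank 5 of 17. Its lowest groups were the 2 D19 assembloid sets (0.524 and 0.560). Trp63 was led by v0 (63.4) and then D19 v2 explants (36.3), and the 6 lowest of its 17 groups were the kidneys and the serum explants. Krt15 in D19 v2 explants (12.9) stood apart from the rest. From D17 v0 explants (2.46) to E15.5 kidneys (0.539), 15 groups overlapped their neighbours in turn, and P9 kidneys (0.141) stood apart below them. For Krt5 the order is loose, since D19 v1 and D19 v2 explants each held samples that differed over 10-fold.

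Over the 17 group means of log2 values, Upk1b and Upk3a had a Pearson r of 0.94, Upk1a and Upk2 of 0.91, and Upk3b had 0.58 to 0.72 with the other uroplakins. Trp63 had −0.02 to 0.37 with the uroplakins and 0.55 with Krt15. These are descriptions over groups that share culture series, time and processing. Among all genes that reached 10 times the pseudocount in a group, the one most like Upk3a was Snx31 (0.952), followed by Upk1b (0.939) and Ctse (0.908), which encodes the protease cathepsin E. Upk1b was most like Upk3a, Shh (0.927) and Snx31 (0.903). Upk1a was most like Upk2 (0.907), Snx31 (0.883) and Upk1b (0.879), and Upk2 was most like Upk1a, the leptin receptor Lepr (0.852) and Sptssb (0.841), a subunit of sphingolipid synthesis. Upk3b had weaker matches in Shh (0.766), Tppp3 (0.751) and Zfp467 (0.726).

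Trp63 was most like Gbp8 (0.953), a guanylate-binding protein, Adamdec1 (0.950), a metalloprotease, and the adhesion receptor Adgrg2 (0.948). Krt15 was most like Reg3g (0.903), an antimicrobial lectin, Sgsm3 (0.838) and Rpl19-ps1 (0.80), a ribosomal pseudogene whose value is uncertain because it can share reads with its parent gene. Krt5 was most like Zhx3 (0.890), Gstm5 (0.866) and Cnih4 (0.864), which had their highest group mean in P45 kidneys.

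**Figure D5:**
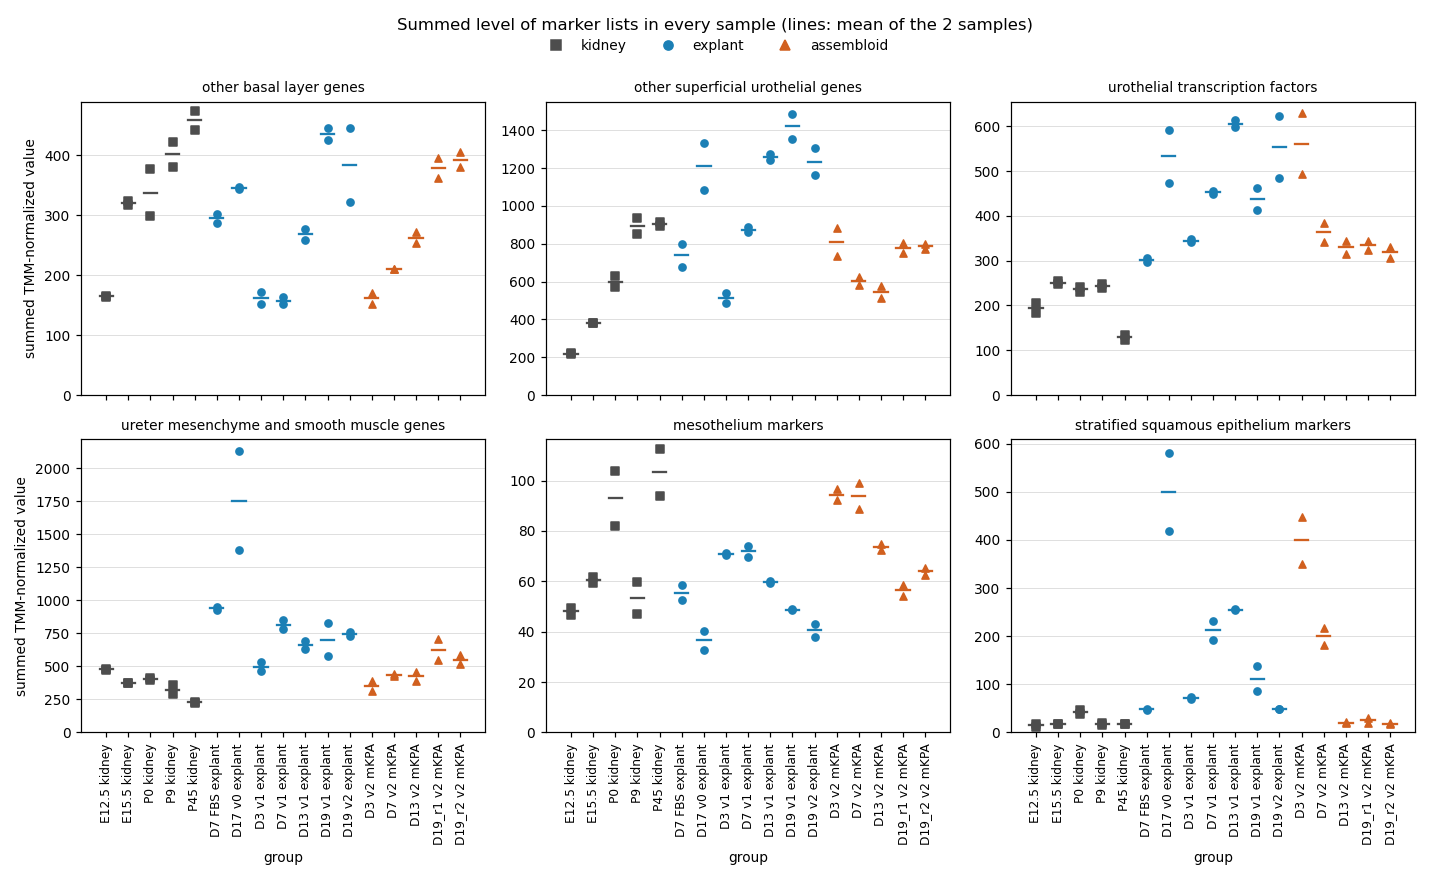
Summed TMM-normalized value of 6 marker lists in each sample by group, with lines at the mean of the 2 samples. The squamous sum peaks in D17 v0 explants (418 and 581) and D3 assembloids (350 and 448), where most of it is Sprr1a alone. Ureter mesenchyme and smooth muscle genes peak in D17 v0 explants (1385 and 2129).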

How the data were processed

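Bulk RNA-seq of 34 mouse samples was used. Per the labels' protocols, total RNA was extracted with Zymo kits and libraries were made by NovoGene. The submitters' processing notes name STAR 2.7.8a, Partek and the builds mm39 and mm10. The sources used here do not give the read counter, its use of strand or the depth in reads. The deposited table holds, per gene and sample, an expression signal that the authors normalized by TMM, per the table's name, and its coordinates are those of mm39. It has 0 columns of other samples. Column totals ran from 879095 to 1503681. Among values of up to 20 steps, 88.9 to 94.5% were whole multiples of the column's lowest value within 0.1 step, which was too few for a count test.

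From these values log2(value + 0.962) was computed, the pseudocount being 1 ppm of the median column total. Genes at or above it in 2 samples were tested, 19264 of 23331. limma 3.58.1 (R 4.3.3, statmod 1.5.0, trend and robust settings) was fitted to 17 group means over 34 samples, with 17 residual degrees of freedom, and p-values were adjusted by Benjamini-Hochberg over all tested genes. The code was tested on simulated data. An exact permutation test of 2 against 2 samples cannot go below p = 0.333 and was not used. Ratios of summed steps carry exact 95% intervals, which take each step of the smaller group as 1 read and cover its counting error only. A group with every library at 1 step was set to a floor of 3 steps per library for a bound.

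All 8 members were named in every comparison. From each other list (76 of 82 listed genes were in the table) up to 4 called genes with the largest changes were taken. List genes named beyond that, such as Krt13, Krt14 and Muc16, were chosen after their values were seen. Genes like a member were the 3 with the highest Pearson r over the 17 group means, among genes with a group mean of at least 10 times the pseudocount. The members and lists were chosen with earlier results of these data known. The comparisons of D7 with D3 and D19 with D13 in v1, and of D13 with D7 in assembloids, were added after seeing the data, as were their alternatives. Alternatives covered the pseudocount, the filter, scaling, moderation, the fold threshold, the samples fitted, a replicate block and leaving out each sample.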

Additional observations from a re-analysis of the deposited data

Results flagged for a closer look

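For 5 of the 8 genes the D3 to D19 change differed between v2 assembloids and v1 explants by a test of the difference itself (limma, adjusted over all tested genes), beside 9.5% of all tested genes called. The assembloid change minus the explant change was −5.78 for Upk3a, −3.22 for Upk1b, −2.70 for Upk3b, −1.52 for Upk1a and −1.04 for Trp63, all on the log2 scale. The Trp63 call was lost under 9 of the alternatives run and the Upk1a call under 4, and 3 to 7 members were called when samples were left out one at a time. For Upk3a and Upk1b every assembloid sample of D19 lay below every assembloid sample of D3, whereas in explants Upk3a rose and Upk1b was not called. The D3 and D19 assembloids did not overlap for 67.2% of all tested genes. Trp63 rose in both cultures, by 1.37 in assembloids and by 2.41 in explants. Medium and origin of the cultures differ together in this contrast.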

How the results depend on the processing

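Of 71 called member results 45 were called in every alternative run and 26 were lost in at least 1, while 25 uncalled results passed in some. With 5 times the pseudocount the number of members called fell by more than 1.5 times in 10 comparisons, from 4 to 2 in E15.5 against E12.5 kidneys, 5 to 3 in P0 against E15.5, 4 to 2 in P9 against P0, 2 to 0 in P45 against P9, 5 to 3 in D19 v2 explants against P0, 1 to 0 in D3 assembloids against D3 explants, 7 to 4 in D19 assembloids against D19 v2 explants, 5 to 3 in D7 against D3 in v1, 2 to 1 in D19 against D13 in v1, and 5 to 3 in the difference of changes. Elsewhere it also lost Upk1a in D3 explants against E12.5 (0.97), Upk3b in v1 against v0 (−0.89), Trp63 in D19 against D3 assembloids (0.91) and Upk1b in D13 against D7 assembloids (−0.81). With 0.1 times the pseudocount it rose from 3 to 5 in D3 explants against E12.5 and from 4 to 7 in D19 against D3 assembloids. Quantile normalization gave 2 in E15.5 against E12.5, rescaling to equal totals gave 0 in P45 against P9, and D19 against D13 in v1 gave 1 with no filter or with only the groups compared. The cause was not tested.

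When samples were left out one at a time, the number of members called ran from 2 to 4 in E15.5 against E12.5, 3 to 4 in P9 against P0, 0 to 2 in P45 against P9, 3 to 4 in D3 explants against E12.5, 4 to 5 in v1 against serum, 1 to 5 in D19 against D3 in v1, 5 to 6 in v1 against v0, 1 to 3 in v2 against v1, 4 to 6 in D19 v2 explants against P0, 0 to 1 in D3 assembloids against explants, 4 to 5 in D19 against D3 assembloids, 6 to 8 in D19 assembloids against v2 explants, 1 to 4 in D19 against D13 in v1 and 3 to 7 in the difference of changes. It was 4, against 5 with all samples, whichever sample was left out in P0 against E15.5 and in D7 against D3 in v1. It stayed at 6 in D19 assembloids against P0 and at 3 in D13 against D7 assembloids.

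The sign changed under some alternative for 26 results, 0 of them called. Without a sample left out, Trp63 in P9 against P0 went from 0.03 to −0.12 with equal totals and −0.08 with quantiles, Upk1b in D19 against D3 in v1 from 0.08 to −0.01 and −0.06, Upk1b in D19 v2 explants against P0 from −0.13 to 0.04 with quantiles, Krt15 in D19 against D13 in v1 from −0.03 to 0.09 with quantiles and to 0 with 5 times the pseudocount, and Krt15 in D13 against D7 assembloids from 0.02 to −0.03 with quantiles. With 1 sample left out, the ranges were −0.47 to 0.28 (Krt15) and −0.05 to 0.51 (Krt5) in E15.5 against E12.5, −0.28 to 0.34 (Trp63) in P9 against P0, and −0.41 to 0.15 (Trp63), −0.83 to 0.02 (Upk1a), −0.96 to 0.41 (Upk1b) and −0.11 to 1.23 (Upk3b) in P45 against P9. They were −0.13 to 0.62 (Krt15), −0.23 to 0.02 (Upk3b) and −0.05 to 0.04 (Krt5) in D3 explants against E12.5, −0.60 to 0.76 (Upk1b) in D19 against D3 in v1, −0.66 to 0.31 (Krt15) and −0.23 to 2.77 (Krt5) in v1 against v0, and −0.17 to 1.19 (Upk1b), −1.91 to 1.09 (Krt5) and −1.47 to 0.15 (Upk3a) in v2 against v1. In D19 v2 explants against P0 they were −0.51 to 0.25 (Upk1b), −0.70 to 1.78 (Krt5) and −1.48 to 0.14 (Upk3a), in D3 assembloids against explants −0.07 to 0 (Krt5), in D7 against D3 in v1 −0.16 to 0.30 (Krt15), in D19 against D13 in v1 −0.51 to 0.46 (Krt15), and in D13 against D7 assembloids −0.19 to 0.23 (Krt15), −0.15 to 0.09 (Upk2), −0.84 to 0.12 (Upk3b) and −0.06 to 0.33 (Upk1a).

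Over all genes, the number called was 0.33 to 0.62 times the reported one with 5 times the pseudocount, 1.04 to 1.61 times with 0.1 times it, 2.22 to 5.53 times with the adjusted p alone and 0.799 to 1.40 times otherwise. Rescaling to equal totals moved the median of all genes most in P9 against P0 (−0.015 to −0.19) and P45 against P9 (−0.008 to −0.33). It moved the share of calls that were higher from 49.4 to 30.2% in P9 against P0, 53.2 to 23.1% in P45 against P9, 50.4 to 60.8% in v1 against serum and 50.9 to 38.7% in D19 against D13 in v1, and quantile normalization moved it from 85.2 to 74.7% in P0 against E15.5. With the replicate number as a block the members called were the same in number in all 18 comparisons, for example 4 in E15.5 against E12.5 and 5 in P0 against E15.5, and no call changed. Across 136 pairs of groups, deviations of same-numbered samples correlated at −0.21 to 0.21 with a median of 0.01, and 11 pairs exceeded 0.1. The numbers thus show no pairing common to the whole series. A median over all pairs cannot show whether some groups were paired, which was not tested. Depth limits the low groups of Krt5, Upk2, Upk3a and Upk1b, whose values rest on a few steps.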
